A study of Mus musculus with 21 samples.

Results

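The genes described are 6 chemokines that melanoma cells can release: Ccl5, Cxcl10, Ccl2, Ccl7, Cxcl1 and Cx3cl1. They were followed through the probe sets that the annotation of the Murine Genome U74Av2 array assigns to 1 gene. These were 8 probe sets of 6 genes, of 10833 probe sets of 8251 genes in all. Ccl5, Cxcl10, Ccl2 and Ccl7 each had 1 probe set (98406_at, 93858_at, 102736_at and 94761_at), Cxcl1 had 95348_at and 95349_g_at, and Cx3cl1 had 98008_at and 161752_r_at. The arrays measure transcripts. Release of the proteins was not measured.

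All 21 arrays held total RNA of B16-F10, a pigmented melanoma cell line of C57BL/6J mice grown in RPMI medium with fetal bovine serum. Hypoxia meant 24 h at 1% oxygen, in a sealed Billups-Rothenberg chamber (3 hypoxia arrays, 2 control arrays) or in an incubator with regulated oxygen flow in experiment 1 (3 and 2 arrays) and experiment 2 (3 and 2 arrays), and the controls of these 3 sets were kept at 21% oxygen. In experiment 3 there were 2 control arrays at 21% oxygen, 2 arrays after 24 h with 100 µM cobalt chloride (CoCl2), a salt the submitters used to mimic hypoxia, and 2 arrays after 24 h with 200 µM. The labels call the arrays of a group biological replicates without saying that they came from separate cultures, so a p-value here reflects only how far such arrays scatter. All groups are of 1 cell line, so none of them speaks for other melanomas, and the number of arrays limits the precision.

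Chemokines are small proteins that guide leukocytes along a gradient by binding receptors on them. Many chemokine genes are nearly silent in resting cells and are switched on by NF-kB, a transcription factor of inflammation, by interferon regulatory factors that act after viral sensing or interferon, or by both. In melanoma the ligands of CXCR3 are known for drawing T cells and natural killer cells, those of CCR2 for drawing monocytes, and the human counterpart of Cxcl1 for its isolation as a growth-stimulating activity of melanoma cells.

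RefSeq promoter sequences were at hand for Cxcl10, Cxcl1 and Cx3cl1, which were 3 of the 6 genes. Those of Cxcl10 and Cxcl1 are printed because both hold matches to a pattern of NF-kB sites. The choice was made with the array results known, and any part of these letters in the results was not tested. Each line gives the 250 bases before the start of transcription on the gene's own strand, 5′ to 3′, from RefSeq on GRCm38.p6. The Cxcl10 sequence lies at chr5:92348890-92349139 on the minus strand and the Cxcl1 sequence at chr5:90890995-90891244 on the plus strand. Capitals mark matches, on either strand, to the NF-kB pattern GGGNNNTTCC, the interferon-stimulated response element (ISRE) pattern GAAANNGAAA, the core patterns of hypoxia response elements, ACGTG and GCGTG, and the AP-1 pattern TGANTCA.
Cxcl10 promoter: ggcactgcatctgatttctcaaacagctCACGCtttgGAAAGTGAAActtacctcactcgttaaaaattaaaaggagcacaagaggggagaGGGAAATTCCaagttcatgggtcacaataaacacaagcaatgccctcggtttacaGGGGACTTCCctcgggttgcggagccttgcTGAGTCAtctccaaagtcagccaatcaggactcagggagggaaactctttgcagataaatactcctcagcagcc
Cxcl1 promoter: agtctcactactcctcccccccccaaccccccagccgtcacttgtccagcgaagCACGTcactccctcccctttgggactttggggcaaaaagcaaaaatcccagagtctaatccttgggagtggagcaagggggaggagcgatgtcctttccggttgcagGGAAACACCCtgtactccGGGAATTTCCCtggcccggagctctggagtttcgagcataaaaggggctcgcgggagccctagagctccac
The Cxcl10 window held the NF-kB pattern starting 159 and 104 bases before the start, the ISRE pattern at 213 bases, GCGTG on the opposite strand at 222 bases and the AP-1 pattern, which reads the same on both strands, at 74 bases. The Cxcl1 window held the NF-kB pattern at 89, 71 and 70 bases, of which the last 2 overlap on opposite strands, and ACGTG on the opposite strand at 196 bases. The Cx3cl1 window held none of these patterns, which says only that these letters are not in that window. Of 32851 promoter windows of this length, 4.65% held GGGNNNTTCC, 16.5% held the looser NF-kB pattern GGGNNNNTCC (which takes in every match of the tighter one), 2.98% held the ISRE pattern, 16.6% held ACGTG, 28.2% held GCGTG and 6.75% held the AP-1 pattern. A match is a run of letters and no measured binding site.

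The deposited values are log2 RMA values, which means that a difference of 1 is a doubling. Array medians lay between 5.44 and 5.53. Of 8 targets of the hypoxia-inducible factors used to check the treatments, all 8 rose at both CoCl2 doses, in the chamber set and in the mean of the 3 hypoxia sets. In experiments 1 and 2, 7 of the 8 rose, and Ldha missed the threshold (adjusted p = 0.066 and 0.14). Of 8 measured melanocyte markers, 7 fell at each CoCl2 dose and 1 rose at 100 µM (0.44). In the hypoxia mean 1 of them rose and 2 fell. Of all probe sets 16.3% rose and 18.0% fell at 100 µM CoCl2, 18.2% and 19.7% at 200 µM. In the hypoxia mean 11.2% of all probe sets rose and 16.8% fell. In the chamber set, experiment 1 and experiment 2, 19.1%, 15.9% and 13.0% of all passed in either direction. The mean level of the 8 melanocyte markers was 6.08 to 7.33 on CoCl2 arrays against 8.31 to 8.64 on the other 17 arrays. At 200 µM Tyrp1, Dct and Tyr, enzymes of melanin synthesis, fell (-3.72, -3.66 and -3.32). The Actb 3′ minus 5′ control value, a measure of RNA integrity, was 1.41 to 1.62 in experiment 3 controls, 2.16 to 2.36 at 100 µM CoCl2 and 0.50 to 1.47 at 200 µM, against 0.15 to 0.50 on the 15 arrays of the hypoxia sets. The same value for Gapdh was 0.92 to 2.21, 1.44 to 2.18 and 0.12 to 0.45 in these experiment 3 groups, against 0.07 to 0.52 in the hypoxia sets. Only the Actb value was used as a covariate. Arrays of 1 group correlated at 0.992 to 0.998 over probe sets, except the pairs at 100 µM (0.980) and 200 µM CoCl2 (0.986). Differences were tested with limma over all 10833 probe sets with Benjamini-Hochberg adjustment. "Rose" and "fell" stand for an adjusted p under 0.05, and ± gives the standard error of a difference.

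Ccl5 and Cxcl10 rose steeply with CoCl2 and did not pass the test in any hypoxia set. Ccl5, which attracts T cells and monocytes, rose 52.7-fold with the lower dose and 82.6-fold with the higher. Cxcl10, a ligand of CXCR3 that is known as an interferon-induced attractant of activated T cells, rose 5.86-fold and 5.06-fold. The other 4 genes differed by less than 1 log2 unit in every comparison made. The plot of member values by array shows this contrast.

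**Figure D1:**
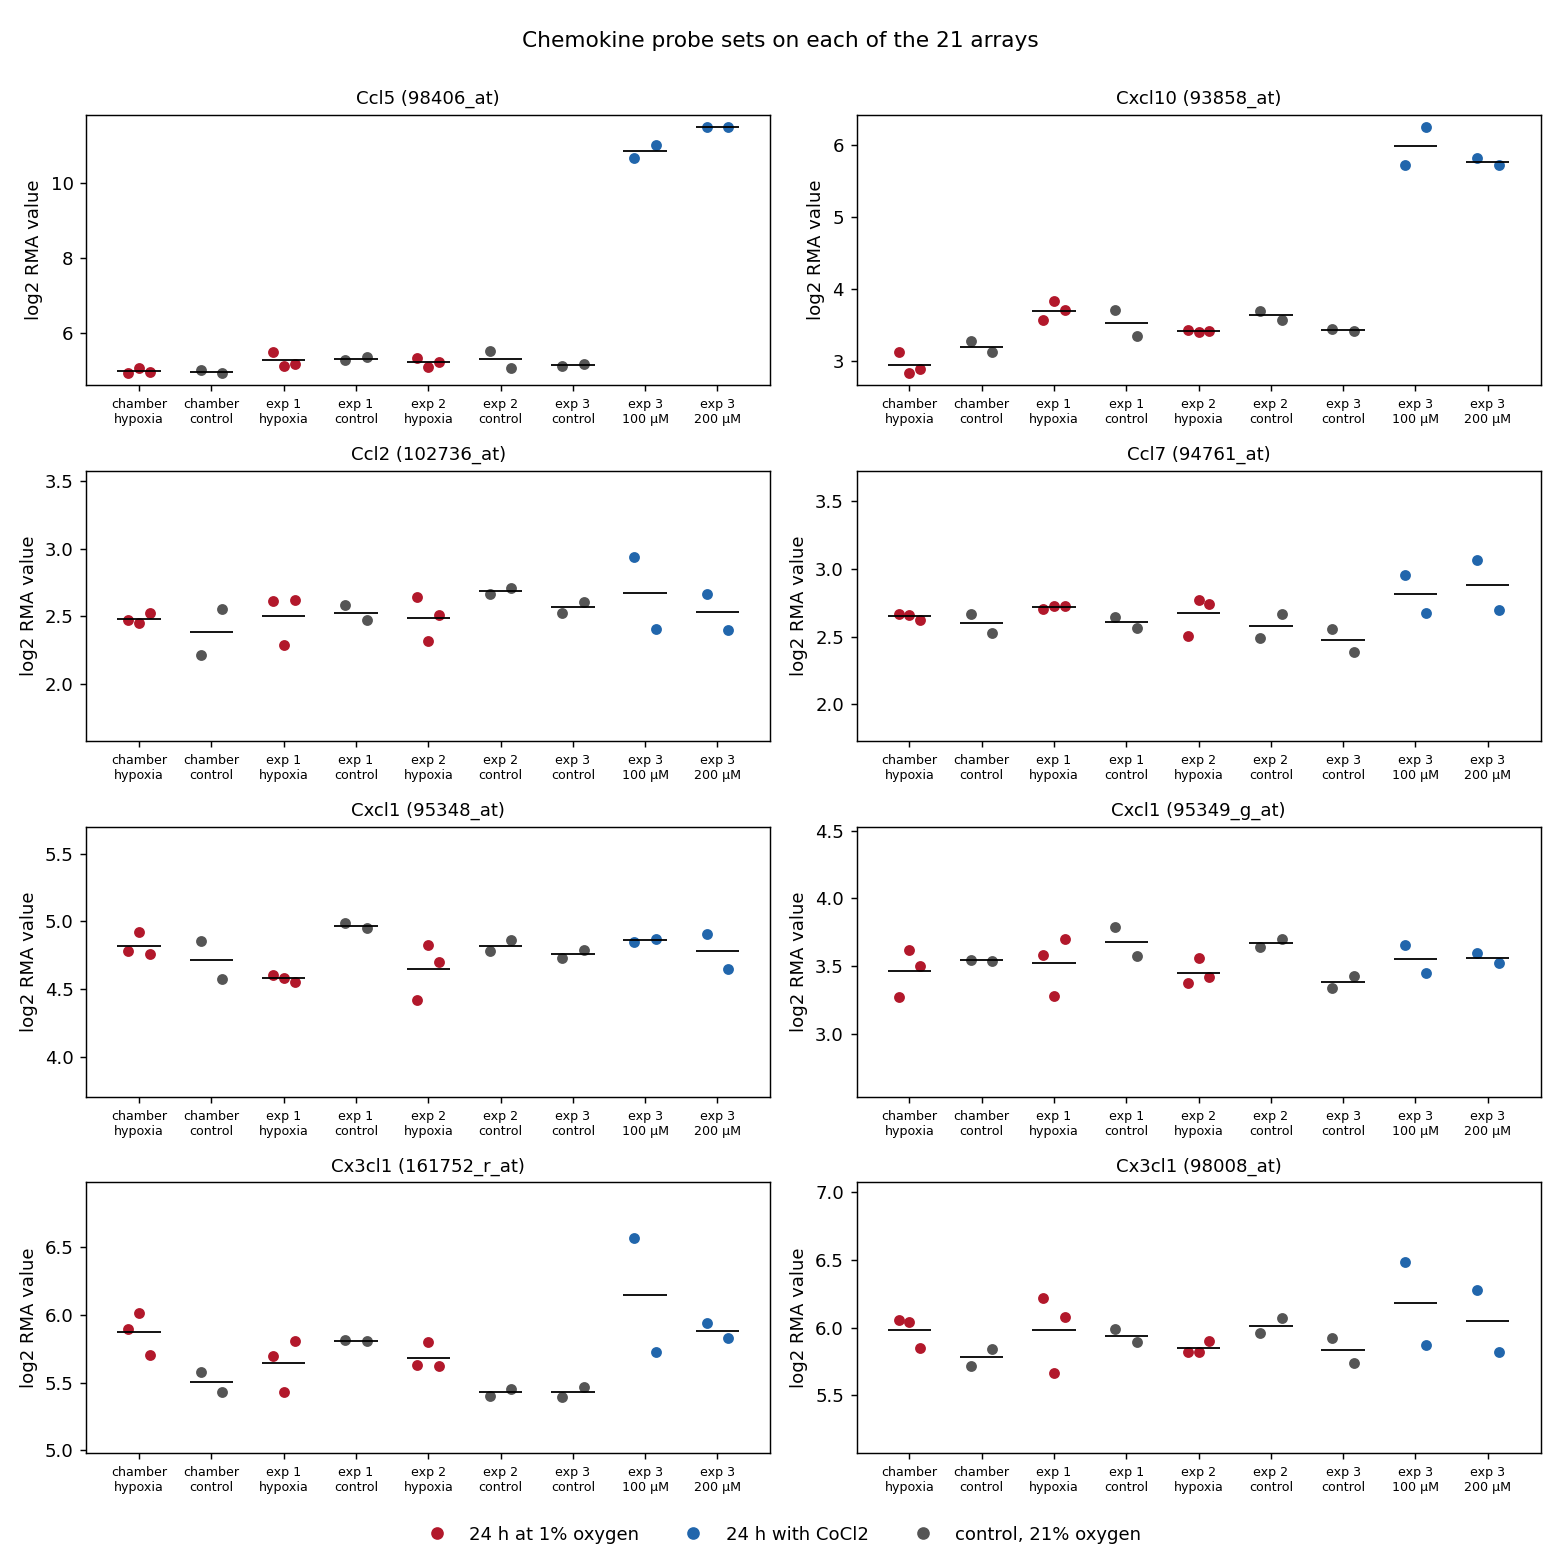
Log2 RMA values (vertical axis, with a separate range for each panel) of the 8 probe sets of the 6 chemokine genes on each of the 21 arrays, grouped along the horizontal axis by set and condition, with a point per array. Ccl5 lay between 10.69 and 11.51 and Cxcl10 between 5.72 and 6.25 on the 4 CoCl2 arrays, above all 17 other arrays, where Ccl5 did not exceed 5.51 and Cxcl10 did not exceed 3.83.

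The Ccl5 probe set read 5.12 and 5.16 on the control arrays of experiment 3, 10.69 and 11.03 with 100 µM CoCl2, and 11.51 and 11.51 with 200 µM. All 4 treated arrays lay far above the controls, and both arrays at 200 µM lay above both at 100 µM. The difference was 5.72 ± 0.15 at 100 µM (adjusted p = 3.2e-16) and 6.37 ± 0.15 at 200 µM (adjusted p = 3.8e-17), the highest rise of all probe sets at either dose. On the arrays without CoCl2, Ccl5 stood between percentiles 38.3 and 48.4 of the array's probe sets, and on the CoCl2 arrays between 99.5 and 99.8. A percentile gives a place among probe sets and not an abundance. Whether the control level exceeded background was not tested, since no detection calls were used, so the folds are uncertain in size.

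The step from 100 to 200 µM was 0.65 ± 0.15 for Ccl5 (adjusted p = 0.0055), a rise by a factor of 1.57. It was the only one of the 8 probe sets to pass the test for the dose step, where 14.4% of all probe sets passed. The step was lost when only the arrays of experiment 3 were fitted (adjusted p = 0.12), with the Actb control value as a covariate (adjusted p = 0.32), with array weights (adjusted p = 0.23), and without 100 µM replicate 1 (0.47, adjusted p = 0.067). The steps of the remaining probe sets ran from -0.27 to 0.06, with Cxcl10 at -0.21 ± 0.15 (adjusted p = 0.44). The Cxcl10 step passed the test without 100 µM replicate 1 (-0.48, adjusted p = 0.043).

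The Cxcl10 probe set read 3.45 and 3.42 on the control arrays of experiment 3, 5.72 and 6.25 with 100 µM CoCl2, and 5.83 and 5.72 with 200 µM. The 2 doses overlapped with each other and not with the controls. The differences were 2.55 ± 0.15 at 100 µM (adjusted p = 6.3e-11) and 2.34 ± 0.15 at 200 µM (adjusted p = 1.4e-10), rank 19 and rank 33 among the rises of all probe sets. Its percentile on the array was 9.66 to 22.9 without CoCl2 and 52.2 to 62.4 with it. The promoter of Cxcl10 printed above holds matches to the NF-kB and ISRE patterns, whose part in the rise was not tested. From 100 to 200 µM the mean of Ccl5 went up and that of Cxcl10 down, and the difference between their steps was not tested.

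In hypoxia neither of these probe sets passed the test in any set. Ccl5 read 4.92, 5.07 and 4.95 on chamber hypoxia arrays, against 4.99 and 4.92 on chamber control arrays. In experiment 1 it read 5.49, 5.11 and 5.17 in hypoxia, against 5.26 and 5.35 in control. In experiment 2 it read 5.32, 5.09 and 5.23 in hypoxia, against 5.51 and 5.06 in control. Hypoxia and control arrays overlapped in each set. The mean difference over the 3 sets was -0.03 ± 0.08, with a 95% interval from -0.20 to 0.13 (adjusted p = 0.84).

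Cxcl10 read 3.13, 2.83 and 2.89 on chamber hypoxia arrays, against 3.28 and 3.12 on chamber control arrays. In experiment 1 it read 3.57, 3.83 and 3.71 in hypoxia, against 3.71 and 3.35 in control. In experiment 2 it read 3.43, 3.40 and 3.42 in hypoxia, against 3.70 and 3.58 in control. The hypoxia arrays lay below both controls in experiment 2 alone, and the 3 set differences, -0.25, 0.18 and -0.22, did not share a sign. Their mean was -0.10 ± 0.08, with a 95% interval from -0.27 to 0.07 (adjusted p = 0.46). The chamber difference passed the test with array weights (adjusted p = 0.027).

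The difference between the CoCl2 response and the hypoxia response was tested directly. For Ccl5 the response to 100 µM CoCl2 exceeded the mean hypoxia response by 5.75 ± 0.17 (adjusted p = 3.3e-15), and the response to 200 µM exceeded it by 6.40 ± 0.17 (adjusted p = 3.9e-16). For Cxcl10 the excess was 2.65 ± 0.17 at 100 µM (adjusted p = 7.1e-10) and 2.44 ± 0.17 at 200 µM (adjusted p = 1.5e-09). These were the 2 of 8 member probe sets that passed at each dose, where 15.7% of all probe sets passed at 100 µM and 23.9% at 200 µM. Without 100 µM replicate 2, 4 passed at 100 µM, the added ones being both Cx3cl1 sets. CoCl2 was used in experiment 3 only and hypoxia in the other sets only, so treatment and experiment cannot be told apart beyond the use of each set's own controls. Targets of the hypoxia-inducible factors rose under both treatments, among them Vegfa, the angiogenic growth factor, by 2.11 at 100 µM CoCl2, 2.88 at 200 µM and 2.52 in hypoxia. In bulk RNA a change in some of the cells and a smaller change in all of them cannot be told apart, nor fewer cells of a type and less RNA per cell.

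**Figure D2:**
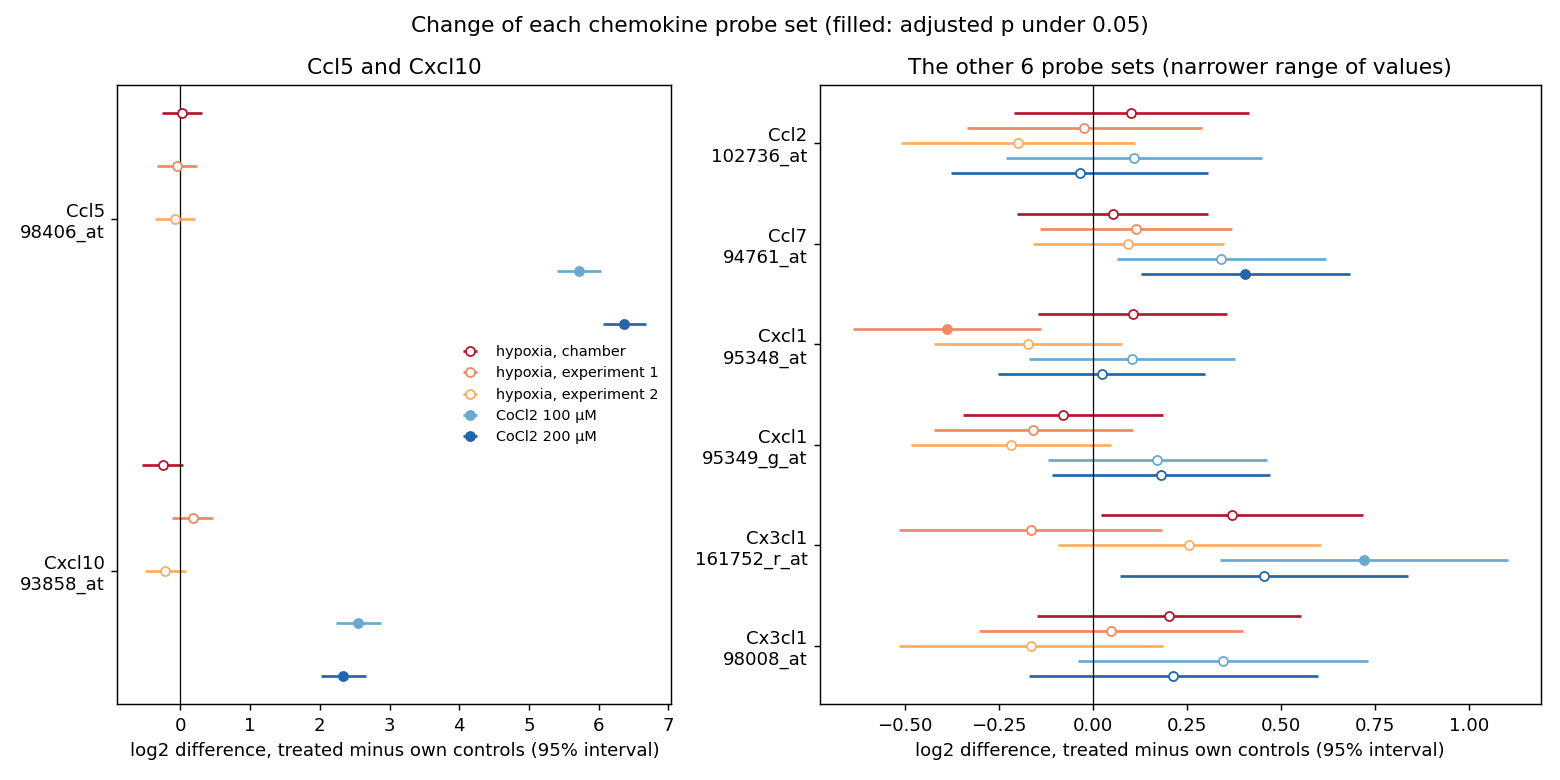
Log2 differences from each set's own controls (horizontal axis) of the 8 chemokine probe sets, with points for each hypoxia set and each CoCl2 dose and bars for the 95% interval. Ccl5 (5.72 and 6.37) and Cxcl10 (2.55 and 2.34) stand apart under CoCl2, while the remaining differences lie between -0.39 and 0.72.

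Over the 9 groups, the mean of Ccl5 was lowest in chamber control arrays and then went up through chamber hypoxia, experiment 3 control, experiment 2 hypoxia, experiment 1 hypoxia, experiment 2 control, experiment 1 control, 100 µM and 200 µM CoCl2. The first 7 of these groups had means between 4.95 and 5.31, with SDs from 0.03 to 0.32. Neighbours in this order overlapped in their arrays, except chamber hypoxia and experiment 3 control, experiment 1 control and 100 µM, and 100 and 200 µM. Cxcl10 was lowest in chamber hypoxia (2.95 ± 0.15, SD, n = 3) and chamber control (3.20 ± 0.11, SD, n = 2), followed by experiment 2 hypoxia, experiment 3 control, experiment 1 control, experiment 2 control and experiment 1 hypoxia (3.70 ± 0.13, SD, n = 3), and highest with 200 µM (5.77 ± 0.07, SD, n = 2) and 100 µM CoCl2 (5.99 ± 0.38, SD, n = 2). Its neighbours overlapped except chamber control and experiment 2 hypoxia, and experiment 1 hypoxia and 200 µM. The means of the remaining probe sets ran over the 9 groups from 2.38 to 2.69 for Ccl2, from 2.48 to 2.88 for Ccl7, from 4.58 to 4.97 for Cxcl1 95348_at, from 3.38 to 3.68 for Cxcl1 95349_g_at, from 5.43 to 6.15 for Cx3cl1 161752_r_at and from 5.78 to 6.18 for Cx3cl1 98008_at. The 4 control groups were compared by an F test in limma, where 27.4% of all probe sets differed between sets. Of the 8 probe sets 0 passed, with adjusted p between 0.15 and 0.82, and 0 had an unadjusted p under 0.05. Ccl5 (adjusted p = 0.032) and Cxcl10 (adjusted p = 0.015) passed it with array weights, and Cx3cl1 161752_r_at (adjusted p = 0.025) when only the control arrays were fitted.

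Ccl2 and Ccl7, neighbours on chromosome 11 and both ligands of CCR2 that draw monocytes, gave low signals in every group. The Ccl2 probe set lay between percentiles 2.54 and 9.30 of the array on all 21 arrays, and the Ccl7 probe set between 4.49 and 11.3. Both belong to the dimmest decile of probe sets by mean. Whether either transcript was present above background was not tested.

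Ccl2 read 2.53 and 2.61 on the control arrays of experiment 3, 2.94 and 2.41 with 100 µM CoCl2, and 2.67 and 2.40 with 200 µM, so the groups overlapped. Its differences were 0.11 at 100 µM (95% interval -0.23 to 0.45) and -0.04 at 200 µM (95% interval -0.38 to 0.31). The hypoxia arrays ranged from 2.29 to 2.65, against 2.21 to 2.71 on all 8 control arrays. The mean hypoxia difference was -0.04 ± 0.09 (adjusted p = 0.81).

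Ccl7 read 2.56 and 2.39 on the control arrays of experiment 3, 2.96 and 2.67 with 100 µM CoCl2, and 3.06 and 2.70 with 200 µM. All 4 CoCl2 arrays lay above both controls. The difference was 0.34 ± 0.13 at 100 µM, which missed the threshold (adjusted p = 0.054), and 0.41 ± 0.13 at 200 µM, which passed it (adjusted p = 0.021). The call at 200 µM was lost with quantile normalisation (0.30, adjusted p = 0.088), with array weights (adjusted p = 0.057), with only the arrays of experiment 3 (adjusted p = 0.19), without control replicate 2 (0.32, adjusted p = 0.15) and without 200 µM replicate 1 (0.22, adjusted p = 0.28). At 100 µM the call was gained under 6 alternatives (adjusted p 0.013 to 0.048), of which 4 left out 1 array and the others took 1 value per gene. The mean hypoxia difference was 0.09 ± 0.07 (adjusted p = 0.44).

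Cxcl1, a ligand of CXCR2 that attracts neutrophils, did not pass the test with CoCl2 on either of its probe sets. The set 95348_at read 4.73 and 4.79 on the control arrays of experiment 3, 4.85 and 4.87 at 100 µM, and 4.91 and 4.65 at 200 µM. Its differences were 0.10 (95% interval -0.17 to 0.38) and 0.02 (95% interval -0.25 to 0.30). The set 95349_g_at read 3.33 and 3.42, then 3.65 and 3.45, then 3.60 and 3.52, with differences of 0.17 (95% interval -0.12 to 0.46) and 0.18 (95% interval -0.11 to 0.47). On this set all 4 CoCl2 arrays lay above both controls, and neither dose passed the test. The Cxcl1 promoter printed above holds matches to the NF-kB pattern, as that of Cxcl10 does. Whether these letters bear on either transcript was not tested.

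Cxcl1 held the single call among the members in hypoxia. On 95348_at it read 4.60, 4.58 and 4.55 on the hypoxia arrays of experiment 1, against 4.99 and 4.95 on the control arrays, without overlap. The difference was -0.39 ± 0.12 (adjusted p = 0.030), a call that 9.18% of all probe sets shared in that direction. Without any 1 of the 5 arrays of that experiment the difference was -0.41 to -0.37, and the call was lost (adjusted p between 0.055 and 0.17). The other Cxcl1 probe set fell short in the same experiment (-0.16 ± 0.13, adjusted p = 0.49). In the chamber set 95348_at read 4.78, 4.92 and 4.76 in hypoxia, against 4.86 and 4.57 in control (0.11 ± 0.12, adjusted p = 0.57). In experiment 2 it read 4.42, 4.83 and 4.70 in hypoxia, against 4.78 and 4.86 in control (-0.17 ± 0.12, adjusted p = 0.46). The chamber response minus the mean incubator response was 0.39 ± 0.15 for this probe set and did not pass (adjusted p = 0.18).

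Cx3cl1, or fractalkine, is anchored in the cell membrane, holds CX3CR1-bearing leukocytes there, and becomes a soluble attractant when ADAM10 or ADAM17 cut it off. Its 2 probe sets moved alike in direction under CoCl2 and differed in their calls. The set 161752_r_at read 5.39 and 5.47 on the control arrays of experiment 3, 6.57 and 5.73 at 100 µM, and 5.94 and 5.83 at 200 µM. All 4 CoCl2 arrays lay above both controls, and 100 µM replicate 1 was the highest of the 21 arrays. The difference was 0.72 ± 0.18 at 100 µM (adjusted p = 0.0050) and 0.45 ± 0.18 at 200 µM (adjusted p = 0.057). The call at 200 µM was gained under 5 alternatives (adjusted p 0.0063 to 0.049), among them leaving out either array at 100 µM.

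The set 98008_at read 5.93 and 5.74 on the control arrays, 6.48 and 5.87 at 100 µM, and 6.28 and 5.82 at 200 µM, so the groups overlapped. Its differences were 0.35 ± 0.18 (adjusted p = 0.15) and 0.21 ± 0.18 (adjusted p = 0.37). On both sets 100 µM replicate 1 read above replicate 2, by 0.84 on 161752_r_at and 0.61 on 98008_at. Without that array the change on 161752_r_at at 100 µM was 0.30 and the call was lost (adjusted p = 0.20). It was also lost with the Actb control value as a covariate (0.55, adjusted p = 0.16) and with only the arrays of experiment 3 (adjusted p = 0.099). The 2 probe sets had the widest spread within groups of the 8, at percentiles 85.9 and 86.4 of all probe sets.

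In hypoxia 161752_r_at read 5.90, 6.02 and 5.70 on the chamber hypoxia arrays, against 5.58 and 5.43 on the chamber control arrays, without overlap. The difference was 0.37 ± 0.17 and did not pass (adjusted p = 0.13), though it did with array weights (adjusted p = 0.0023) and with only the chamber arrays (adjusted p = 0.0082). In experiment 2 the hypoxia arrays, at 5.63, 5.80 and 5.62, also lay above the control arrays, at 5.40 and 5.45 (0.26 ± 0.17, adjusted p = 0.43), whereas in experiment 1 the difference was -0.17 ± 0.17 (adjusted p = 0.61). The mean hypoxia difference was 0.15 ± 0.10 (adjusted p = 0.29) on 161752_r_at and 0.03 ± 0.10 (adjusted p = 0.89) on 98008_at.

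Counted over the 8 probe sets, 3 rose at 100 µM CoCl2 (Ccl5, Cxcl10 and Cx3cl1 161752_r_at), where 16.3% of all probe sets rose, and 3 rose at 200 µM (Ccl5, Cxcl10 and Ccl7), where 18.2% rose. None fell at either dose. Without 100 µM replicate 2, whose readings of Ccl7 and both Cx3cl1 sets were the lower of the pair, 5 rose at 100 µM, Ccl7 and Cx3cl1 98008_at being added. In hypoxia 0 of 8 passed in the chamber set, against 19.1% of all probe sets, 1 in experiment 1 (15.9%), 0 in experiment 2 (13.0%) and 0 for the mean of the 3 sets (28.0%). The limma p before adjustment was under 0.05 for 1 of the 8 in the chamber set, 0 in experiment 2 and 1 for the mean. The response differed between chamber and incubator for 0 of the 8 (1.20% of all probe sets, 1 of the 8 before adjustment) and between experiments 1 and 2 for 0 of the 8 (0.203% of all, 0 of the 8 before adjustment).

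The small CoCl2 differences of the other members were read beside probe sets of like level, a grouping made after the values were seen. The median difference of all probe sets was 0.11 at 100 µM and 0.12 at 200 µM, and it depended on the level. In the dimmest decile, which holds Ccl2 and Ccl7, it was 0.09 and 0.11. In the second decile, which holds Cxcl1 95349_g_at, it was 0.19 and 0.16, and in the fourth, which holds Cxcl1 95348_at, 0.20 and 0.18. In the sixth, which holds both Cx3cl1 sets, it was 0.13 and 0.14. The differences of Cxcl1 on 95349_g_at (0.17 and 0.18) thus lay beside the median of their decile, those of 95348_at (0.10 and 0.02) below it, and those of Ccl7 (0.34 and 0.41) and Cx3cl1 161752_r_at (0.72 and 0.45) above it. Among the brightest decile the median was -0.18 at 100 µM and -0.09 at 200 µM.

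**Figure D3:**
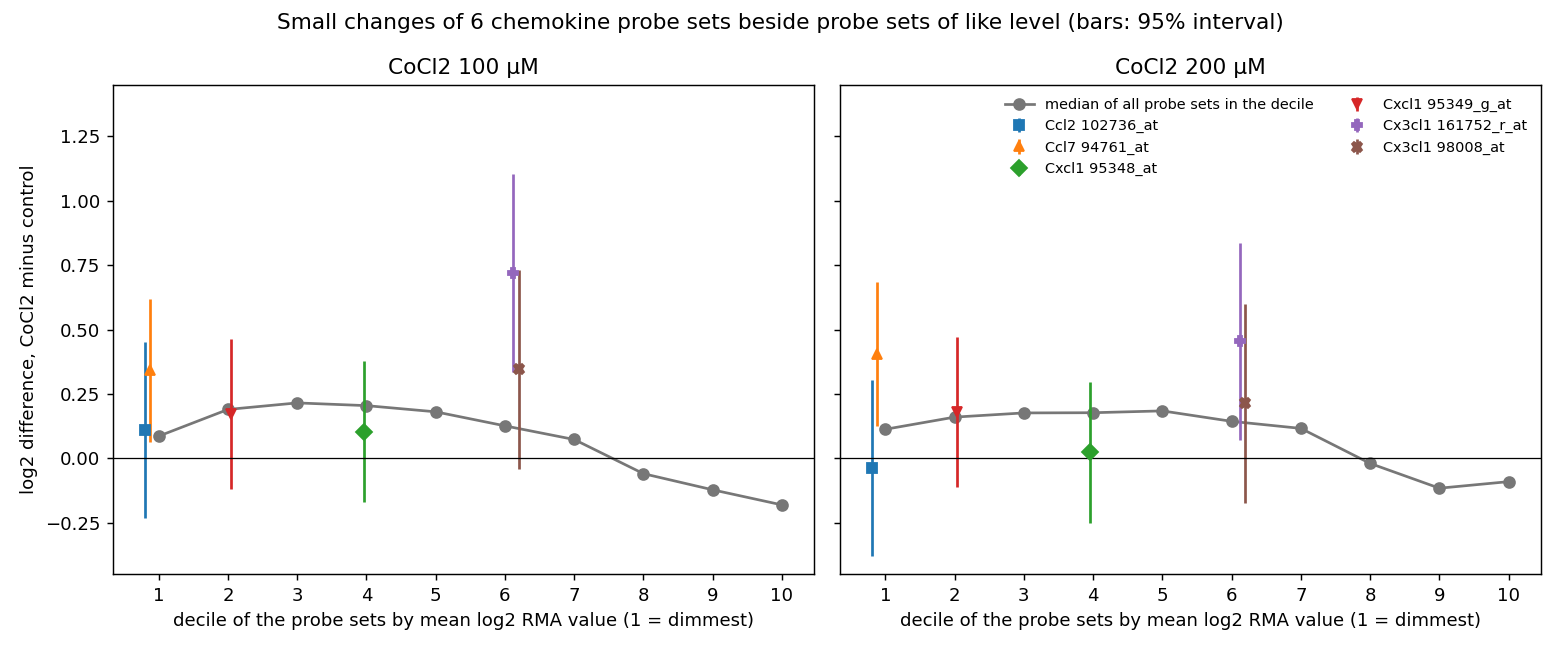
Log2 differences, CoCl2 minus control (vertical axis), of 6 chemokine probe sets with their 95% intervals, placed at the decile of all probe sets by mean log2 RMA value to which each belongs (horizontal axis), beside the median of all probe sets in each decile (grey line). The grey line runs above 0 in the first 7 deciles and below 0 in the brightest 3. The intervals take it in, except those of Cx3cl1 161752_r_at at 100 µM and Ccl7 at 200 µM.

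Other chemokines on the array were looked at from a list of 30, of which 19 were measured with 1-gene probe sets. At 100 µM CoCl2 5 of the 19 rose and 0 fell, at 200 µM 2 rose and 0 fell, and in the hypoxia mean 1 rose, counted here and in the lists that follow on the brightest probe set of each gene. Over all probe sets 16.3% rose and 18.0% fell at 100 µM, 18.2% rose and 19.7% fell at 200 µM, and 11.2% rose and 16.8% fell in the hypoxia mean. The 5 at 100 µM were Ccl8 (0.59, adjusted p = 0.012), Cxcl12 (0.42, adjusted p = 0.045), Ccl22 (0.39, adjusted p = 0.033), Ccl12 (0.34) and Xcl1 (0.32), and the 2 at 200 µM were Ccl6 (0.49, adjusted p = 0.038) and Xcl1 (0.29). Differences of the 19 ran from 0.10 to 0.59 at 100 µM and from 0.04 to 0.49 at 200 µM, with medians of 0.25 and 0.22. Cxcl12, which keeps CXCR4-bearing cells in bone marrow, rose by 0.29 ± 0.08 in the hypoxia mean (adjusted p = 0.011) on its brightest probe set, and its other sets differed by 0.03 and -0.08.

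Measured genes up to the second place on either side of the members differed by less than 1 log2 unit under CoCl2. Around Cxcl10, Nup54, a nuclear pore subunit that adjoins it, fell (-0.81, adjusted p = 5e-05, and -0.56, adjusted p = 0.0016), and Scarb2, a lysosomal membrane protein, rose by 0.55 at 100 µM (adjusted p = 0.028). Asic2 beside Ccl2 (0.39, adjusted p = 0.036) and Ciapin1 beside Cx3cl1 (0.38, adjusted p = 0.047) rose at 100 µM, as did Ccl12 and Ccl22. Cxcl9, another CXCR3 ligand and the second protein-coding gene from Cxcl10 on chromosome 5, differed by 0.22 at 100 µM (adjusted p = 0.26) and 0.17 at 200 µM (adjusted p = 0.41). Ccl9, which adjoins Ccl5 on chromosome 11, differed by 0.15 and 0.13 (adjusted p = 0.63 and 0.69), and Ccl6, the next gene, by 0.20 (adjusted p = 0.39) and 0.49. Cxcl2, which follows Cxcl1, differed by 0.11 and 0.04. The order of genes was taken from RefSeq.

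**Figure D4:**
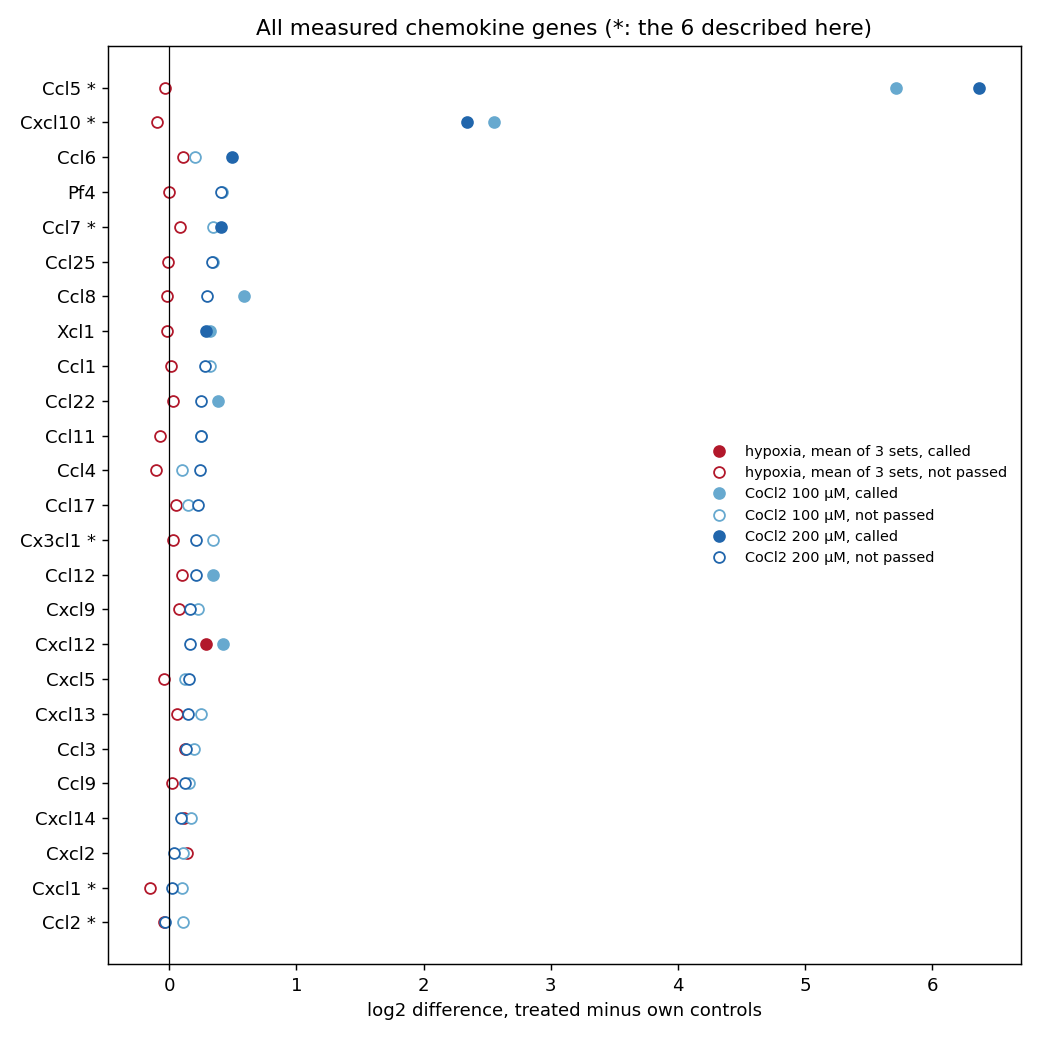
Log2 differences (horizontal axis) of the 6 members and the 19 other measured chemokines at 100 µM and 200 µM CoCl2 against control and for the hypoxia mean, 1 row per gene (its brightest probe set), with filled points for an adjusted p under 0.05. No other chemokine exceeds 0.59, against 2.34 to 6.37 for Cxcl10 and Ccl5.

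Of 24 chemokine receptors and decoys 20 were measured. At 100 µM CoCl2 2 rose (Cx3cr1, the receptor of Cx3cl1, by 0.38, and Ccr1l1 by 0.33) and 1 fell, at 200 µM 5 rose and 1 fell, and in the hypoxia mean 0 rose and 1 fell. The 1 that fell each time was Ackr3, a decoy receptor that takes up Cxcl12, with differences of -0.72 at 100 µM (adjusted p = 0.00073), -1.17 at 200 µM (adjusted p = 1.7e-06) and -0.64 in hypoxia (adjusted p = 1.4e-06). The rises at 200 µM were those of Ccr7 (0.43), Ccr9 (0.40), Cxcr5 (0.40), Cx3cr1 (0.39) and Ackr1 (0.37). Ccr7 lay at a mean level of 2.72, in the dimmest decile of probe sets, and Ackr3 at 3.17, in the second decile. Presence of these transcripts above background was not tested. Among all probe sets 16.3% rose and 18.0% fell at 100 µM, 18.2% rose and 19.7% fell at 200 µM, and 11.2% rose and 16.8% fell in the hypoxia mean. Of 8 proteases that shed or trim chemokines, Mmp9 rose at both doses (0.42 and 0.62), while Mmp14 (-1.09, adjusted p = 1.4e-06) and Adam10, which sheds Cx3cl1 (-0.73, adjusted p = 0.021), fell at 200 µM. The other Adam10 probe set differed by 0.26 there (adjusted p = 0.31). In the hypoxia mean Mmp9 differed by 0.13, Mmp14 by -0.10 and Adam10 by 0.11, and none of these passed. Mmp14 fell in experiment 1 (-0.70, adjusted p = 0.00036), against differences of 0.27 in the chamber set and 0.12 in experiment 2 that did not pass. The other Mmp9 probe set differed by 0.21 and 0.18 at the 2 doses.

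Some genes of the NF-kB system rose with CoCl2. Of 14 measured subunits, inhibitors and feedback genes, 6 rose and 0 fell at 100 µM CoCl2, 7 rose and 0 fell at 200 µM, and 1 rose and 2 fell in the hypoxia mean. The list medians were 0.29 and 0.35 at the 2 doses, beside 0.11 and 0.12 for all probe sets, of which 16.3% and 18.2% rose. At these doses 18.0% and 19.7% of all probe sets fell, and in the hypoxia mean 11.2% rose and 16.8% fell. Nfkb2, the subunit of the non-canonical pathway, rose by 0.86 ± 0.20 (adjusted p = 0.0020) and 1.20 ± 0.20 (adjusted p = 5.1e-05). Nfkbia, the inhibitor that NF-kB induces against itself, differed by 0.47 ± 0.19 (adjusted p = 0.057) and rose by 1.13 ± 0.19 at 200 µM (adjusted p = 5.8e-05). The other Nfkbia probe set rose at both doses, by 0.39 (adjusted p = 0.038) and 0.73 (adjusted p = 0.00028). Relb, the partner of Nfkb2, rose by 0.62 and 0.43, and its other probe set differed by 0.30 and 0.12. Tnfaip3, a feedback deubiquitinase, rose by 0.58 at 100 µM, differed by 0.36 at 200 µM (adjusted p = 0.091) and rose by 0.24 in hypoxia (adjusted p = 0.042), where Nfkbib (-0.25) and Ikbkb (-0.30) fell.

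Of 17 other cytokine, adhesion and acute-phase genes known as NF-kB targets, 4 rose and 1 fell at 100 µM. At 200 µM 2 rose and 1 fell, and in the hypoxia mean 0 rose and 2 fell. Over all probe sets 16.3% rose and 18.0% fell at 100 µM, and 18.2% rose and 19.7% fell at 200 µM. In the hypoxia mean 11.2% of all probe sets rose and 16.8% fell. Il6, a fever cytokine, rose by 0.42 and 0.37, on a probe set of the dimmest decile (mean level 2.48). Whether Il6 was present above background was not tested. Lcn2, a siderophore-binding protein, rose by 0.50 and Tnf by 0.41 at 100 µM, where the other Lcn2 probe set differed by -0.11 (adjusted p = 0.48). Tnfaip2, named for its induction by tumour necrosis factor, fell by 0.49 at 100 µM (adjusted p = 0.0013) and by 0.95 at 200 µM (adjusted p = 3.3e-07). Csf3, a granulocyte growth factor, rose by 0.34 and 0.32. In the hypoxia mean Tnfaip2 (-0.27) and Sod2 (-0.33) fell.

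Of 15 measured genes of interferon signalling and nucleic acid sensing, 1 rose and 1 fell at 100 µM, 2 rose and 1 fell at 200 µM, and 3 rose and 3 fell in the hypoxia mean. Of all probe sets 16.3% rose and 18.0% fell at 100 µM, 18.2% rose and 19.7% fell at 200 µM, and 11.2% rose and 16.8% fell in the hypoxia mean. The rise at both doses was that of Ifih1, which encodes the double-stranded RNA sensor MDA5, by 3.08 ± 0.17 (adjusted p = 1.6e-11) and 2.17 ± 0.17 (adjusted p = 1.6e-09). In the hypoxia mean it differed by -0.11 ± 0.09 (adjusted p = 0.43), and it fell in experiment 1 (-0.46, adjusted p = 0.045), against 0.08 and 0.04 in the chamber set and experiment 2. Irf5 differed by 0.33 at 100 µM (adjusted p = 0.057) and rose by 0.46 at 200 µM (adjusted p = 0.0097). Ifnar1, a chain of the type I interferon receptor, fell by 0.45 and 0.61. The interferon gene Ifnb1 differed by 0.23 ± 0.12 (adjusted p = 0.14) and 0.27 ± 0.12 (adjusted p = 0.082). In the hypoxia mean Ifnar2 (0.37, with -0.70 on another probe set, which also fell with CoCl2, by 0.73 and 1.01), Ifngr1 (0.20) and Irf5 (0.26) rose, and Ifngr2 (-0.25), Irf3 (-0.29) and Myd88 (-0.28) fell.

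Some chemokine transcripts are known to be short-lived through AU-rich elements, to which decay and stabilising factors bind. The stability of the members' transcripts was not measured. Of 9 measured genes of this machinery, 0 rose and 5 fell at 100 µM, 1 rose and 5 fell at 200 µM, and 3 rose and 3 fell in the hypoxia mean. Of all probe sets 16.3% rose and 18.0% fell at 100 µM, and 18.2% rose and 19.7% fell at 200 µM. In the hypoxia mean 11.2% of all probe sets rose and 16.8% fell. Hnrnpd, a decay factor also called AUF1, fell (-0.88 at 100 µM and -1.17 at 200 µM). Elavl1, the stabilising factor HuR, fell by 1.05 and 1.08, and in hypoxia it fell in the chamber set alone (-0.51, adjusted p = 0.036). Tia1, a silencer of such transcripts, fell by 0.70 and 1.08. Zfp36l2, a decay factor, fell by 1.24 and 0.84 on its brightest probe set, while another rose by 0.67 at 100 µM (adjusted p = 0.010). Zfp36l1, of the same family, fell by 0.62 and 0.87. Zfp36, the decay factor tristetraprolin, rose by 0.85 in hypoxia (adjusted p = 2.2e-05) and by 0.79 at 200 µM (adjusted p = 0.014). Zfp36l1 (0.30) and Cnot7 (0.19) also rose in the hypoxia mean, and Zfp36l2 (-0.48), Hnrnpd (-0.55) and Tia1 (-0.22) fell.

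Markers of other cells that make chemokines were measured beside these changes. Over all probe sets 16.3% rose and 18.0% fell at 100 µM CoCl2, and 18.2% rose and 19.7% fell at 200 µM. Of 15 leukocyte markers 3 rose and 0 fell at 100 µM CoCl2 and 2 rose and 1 fell at 200 µM. In the hypoxia mean 2 of the 15 rose and 0 fell, where 11.2% of all probe sets rose and 16.8% fell. The mean level of the list was 4.81 to 5.03 on CoCl2 arrays against 4.45 to 4.75 on the others. Cd68, a lysosomal protein of macrophages that other cells also make, rose by 2.50 and 3.98 on 103016_s_at, and its other probe set differed by 0.18 and 0.09. On 103016_s_at it also rose in the chamber set (0.86), experiment 1 (0.95) and experiment 2 (0.72), with a mean of 0.84 (adjusted p = 1.9e-05). Ptprc, the common leukocyte antigen CD45, differed by 0.11 (adjusted p = 0.61) and 0.06 (adjusted p = 0.80) and lay at a mean level of 3.13. The other rises were those of Cd79a (0.69) and Cd3e (0.49) at 100 µM and Csf1r (0.40) at 200 µM, where Laptm5 fell (-0.34) and its other probe set differed by 0.23. Of 10 fibroblast markers 0 rose and 1 fell (Postn) at 100 µM, and 3 rose (Col1a2, Col3a1, Pdgfra) and 1 fell (Postn) at 200 µM. Of 8 endothelial markers 1 rose (Vwf) and 1 fell (Eng) at 100 µM, and 0 rose and 1 fell (Eng) at 200 µM. The dimmer Vwf probe set differed by -0.09 at 100 µM, fell at 200 µM (-0.80, adjusted p = 0.00041) and rose in the hypoxia mean (0.60). Of 7 epithelial and keratinocyte markers 3 rose at 100 µM (Krt8, Krt18, Cdh1) and the same 3 and Krt14 at 200 µM. The part of other cells, and of the higher Actb 3′ minus 5′ values of experiment 3, in the CoCl2 results was not tested. With that control value as a covariate, Ccl5 rose by 5.71 and 6.38 and Cxcl10 by 2.61 and 2.30 at the 2 doses.

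The probe sets most like each member were sought by Pearson correlation over the 21 arrays, among probe sets of other genes with an SD of at least 0.5 (989 or 990 candidates), and are given as a description with no test. For Ccl5 they were Gm9706 (r = 0.986), Zfand2a (0.984), Isg15 (0.982) and Cxcl10 (0.969). Zfand2a encodes a zinc finger protein induced by arsenite, and Isg15 is the ubiquitin-like modifier induced by interferon. Gm9706 differed by 4.29 at 100 µM and 4.50 at 200 µM, Zfand2a by 1.93 and 2.43 and Isg15 by 2.86 and 4.01, against hypoxia means of -0.08, -0.20 and -0.32. Over the 17 arrays without CoCl2 the same correlations with Ccl5 were -0.30 for Gm9706, -0.06 for Zfand2a, 0.13 for Isg15 and 0.56 for Cxcl10. All of these arrays share a set structure, and the likeness over 21 arrays rests on the 4 CoCl2 arrays.

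For Cxcl10 the most alike were Ccl5 (0.969), Lamp2 (0.961), Gclm (0.951) and Zfand2a (0.945). Lamp2 is a lysosomal membrane protein, and Gclm is a subunit of the enzyme that starts glutathione synthesis. Gclm differed by 2.26 at 100 µM and 1.95 at 200 µM, and Lamp2 by 1.40 and 1.48. Over the 17 arrays without CoCl2 the correlations with Cxcl10 were 0.54 for Lamp2, 0.35 for Gclm and 0.01 for Zfand2a. Ccl7 was most alike Hmox1, the heme oxygenase of oxidative stress (0.670), P4ha2 (0.667), Sel1l (0.664) and Sqstm1 (0.660), and without the CoCl2 arrays these correlations were 0.48 to 0.65. For Ccl2 (at most 0.494, with Tubb2a), Cxcl1 95348_at (at most 0.486, with C330007P06Rik) and Cx3cl1 98008_at (at most 0.638, with Tubb2a) the best correlations were lower. Among the members themselves, Ccl2 and Cx3cl1 98008_at correlated at 0.744 (0.55 without the CoCl2 arrays), and both had 100 µM replicate 1 as their highest array.

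**Figure D5:**
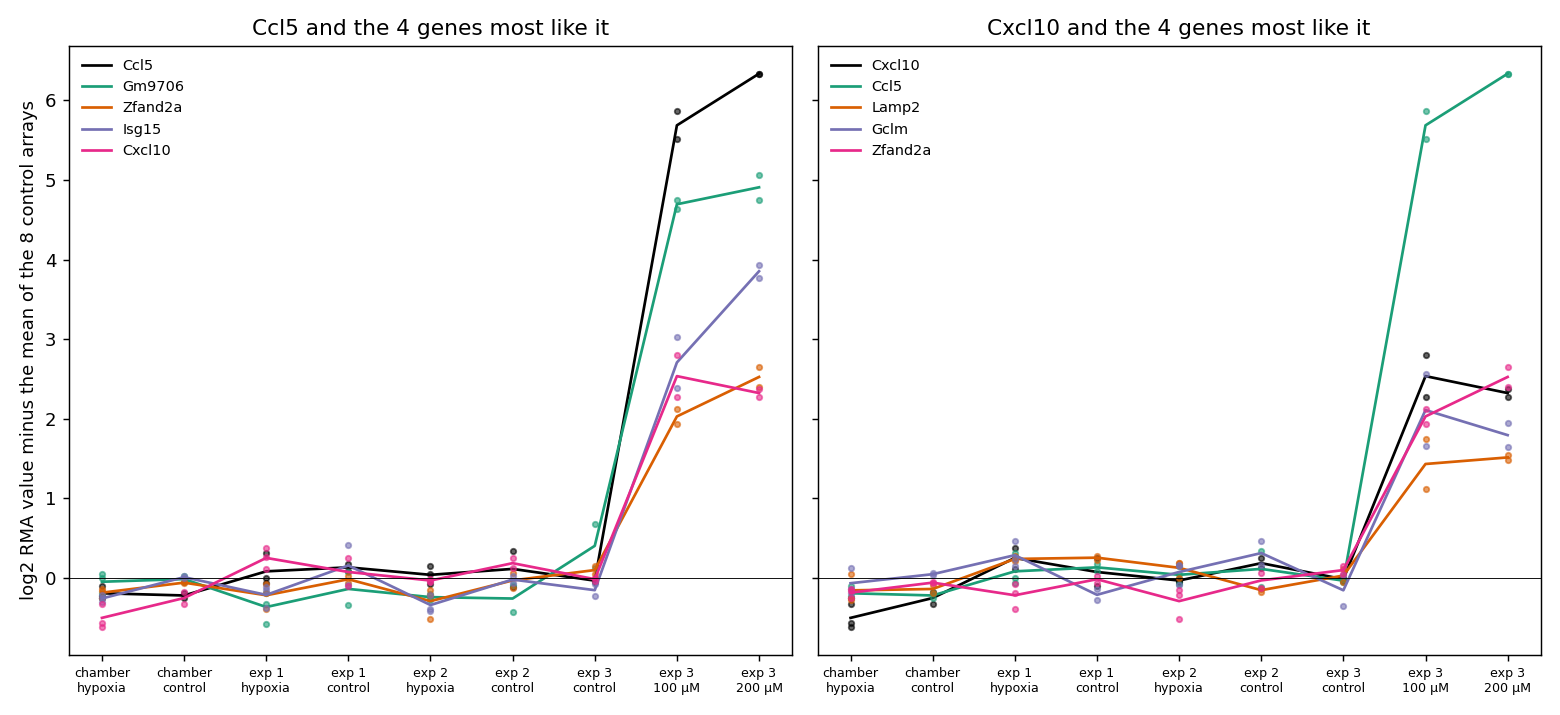
Log2 RMA values minus the mean of the 8 control arrays (vertical axis) for Ccl5, Cxcl10 and the genes most like each, over the 9 groups (horizontal axis), with a point per array and lines through the group means. The lines stay close together in the control and hypoxia groups and part at the CoCl2 groups, where Ccl5 and Isg15 read higher at 200 µM and Cxcl10 and Gclm higher at 100 µM.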

How the data were processed

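RNA of B16-F10 cells was measured on 21 arrays in 9 groups. The deposited values are log2 values, 1 per probe set and array. They were made with GCOS 1.2 and RMA, per the submitters' processing notes, by a version of RMA and in a number of runs not given in the sources used. Controls whose titles lack an experiment number were taken as those of the chamber arrays, whose titles lack one too. The chemokines, the gene lists and the tests were chosen with earlier results of these data known.

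Of 12488 probe sets, 66 were Affymetrix controls, 396 had several genes and 1193 had no gene name here. The 10833 with 1 gene were fitted without further scaling, in limma 3.58.1 under R 4.3.3, with 1 mean per group and empirical Bayes moderation (12 residual degrees of freedom, 20.1 after moderation). Of these, 10817 were matched to a current symbol. Tests were two-sided, adjusted over all 10833 probe sets, and tested beforehand on simulated data. Comparisons were each treatment against its own controls, the dose step, CoCl2 minus hypoxia, chamber minus incubator, experiment 1 minus experiment 2, and controls across sets. Lists were counted on the brightest probe set of each gene. The text names all chemokine probe sets, up to 4 called genes of each list with the largest changes, and the 4 probe sets most alike each chemokine. List genes beyond these were named after their values were seen, where a count of 5 or fewer held them. Alternatives were median centring, quantile normalisation, a filter on dim probe sets, other choices of probe sets, a variance trend, array weights, only the arrays compared, an Actb covariate, a replicate block, and leaving out each array.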

Additional observations from a re-analysis of the deposited data

Results flagged for a closer look

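The responses to CoCl2 and to hypoxia differed for Ccl5 and Cxcl10 by a test of the difference itself in limma. For Ccl5 the response to CoCl2 exceeded the mean hypoxia response by 5.75 ± 0.17 log2 units at 100 µM (adjusted p = 3.3e-15) and by 6.40 ± 0.17 at 200 µM (adjusted p = 3.9e-16). For Cxcl10 the excess was 2.65 ± 0.17 at 100 µM (adjusted p = 7.1e-10) and 2.44 ± 0.17 at 200 µM (adjusted p = 1.5e-09). All 4 CoCl2 arrays showed the direction for both genes. CoCl2 and hypoxia were applied in different sets, and the part of the set in these differences was not tested.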

How the results depend on the processing

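Of 2916 values of the 8 chemokine probe sets under alternatives, 2871 kept their side of the threshold, 18 lost a call and 27 gained one. Among the 2679 log2 differences no called one changed sign, while 76 changed sign where neither value passed. Over all alternatives Ccl5 kept its calls, with differences of 5.55 to 5.95 at 100 µM and 6.35 to 6.39 at 200 µM CoCl2, and so did Cxcl10 wherever it was tested, with 2.29 to 2.82 and 2.29 to 2.39. The dim filter (40th percentile) left 3 of the 8 probe sets, those of Ccl5 and Cx3cl1. This leaves 0 chemokine calls in hypoxia of experiment 1 and 1 in each comparison of CoCl2 minus hypoxia, through fewer probe sets tested.

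Chemokine calls also moved with array weights (2 in the chamber set, 1 for the hypoxia mean, 0 for the dose step, 2 across controls), only the arrays compared (1 in the chamber set, 0 for the dose step, 1 across controls), the Actb covariate (0 for the dose step), quantile normalisation (1 for the hypoxia mean) and the mean of probe sets per gene (0 in experiment 1). At each CoCl2 dose they ran from 2 to 4 over the alternatives other than leaving out an array, against 3 in the main fit. The cause was not tested. With 1 array left out, calls ran from 0 to 1 in the chamber set and in experiment 1, from 2 to 5 at 100 µM CoCl2, from 1 to 2 for the dose step and from 2 to 4 for 100 µM CoCl2 minus hypoxia. Calls in experiment 2, between devices and between experiments 1 and 2 stayed at 0 under every alternative run.

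The replicate block left 0 chemokine calls in experiment 1, where Cxcl1 95348_at differed by -0.37 (adjusted p = 0.16), and changed no other chemokine call. Arrays of 1 replicate number had residuals correlated from -0.354 to 0.316, with values over 0.1 in experiment 2 alone, and in experiment 3 both numbers give the same values because its groups have 2 arrays. The value of -0.354 was that of control against 100 µM CoCl2 in experiment 3. With 2 arrays in each group its sign would turn if the numbers of 1 group were exchanged. Since the labels tie the numbers to nothing, the numbers were not taken as pairs. Something shared between arrays within experiment 2 or experiment 3 was not tested. The block lowered the calls among all probe sets to 1222 (chamber), 941 (experiment 1), 899 (experiment 2), 1000 (dose step), 982 (100 µM CoCl2 minus hypoxia), 5 (chamber minus incubator) and 1 (experiment 1 minus experiment 2). The block was not run for the F test of controls.

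The main counts over all probe sets were 2067 (chamber), 1727 (experiment 1), 1408 (experiment 2), 3723 (100 µM), 4104 (200 µM), 1557 (dose step), 1705 (100 µM minus hypoxia), 130 (chamber minus incubator), 22 (experiment 1 minus experiment 2) and 2969 (controls). Array weights gave 4916 (chamber), 1802 (100 µM), 225 (dose step), 767 (100 µM minus hypoxia), 1942 (chamber minus incubator), 77 (experiment 1 minus experiment 2) and 4943 (controls). Only the arrays compared gave 4340 (chamber), 1298 (100 µM), 1995 (200 µM), 115 (dose step) and 866 (chamber minus incubator), and was not run for CoCl2 minus hypoxia, which uses every set. The Actb covariate gave 1936 (100 µM), 137 (dose step), 931 (100 µM minus hypoxia), 312 (chamber minus incubator) and 612 (controls). Chamber minus incubator had 255 with median centring and 239 without dim probe sets. With 1 array left out the counts ran from 998 to 2640 (chamber), 976 to 2095 (experiment 1), 785 to 1711 (experiment 2), 2140 to 5129 (100 µM), 682 to 2364 (dose step), 829 to 3783 (100 µM minus hypoxia), 4 to 435 (chamber minus incubator), 5 to 44 (experiment 1 minus experiment 2) and 1374 to 3692 (controls).

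Pairs of arrays per CoCl2 dose, 1 experiment with CoCl2 and signals of Ccl2, Ccl7, Cxcl10 and Cxcl1 in the dimmer part of the arrays limit what small differences can show. Leaving out 1 array ended the calls of Ccl7 at 200 µM, Cx3cl1 at 100 µM and Cxcl1 in experiment 1, the last with a difference still between -0.41 and -0.37.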

Other observations

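Of the 8 measured melanocyte markers, 7 moved the opposite way to Ccl5 and Cxcl10 at each CoCl2 dose, and 1 rose at 100 µM. Of all probe sets 18.0% fell at 100 µM and 19.7% at 200 µM. Tyr, the enzyme that starts melanin synthesis, differed by -2.62 at 100 µM and -3.32 at 200 µM, and Mitf, the master regulator of melanocytes, by -1.52 and -2.01 (limma adjusted p between 1.5e-08 and 6.9e-07 for Tyr and between 1.2e-09 and 1.3e-07 for Mitf). In the hypoxia mean Mitf rose by 0.89 (adjusted p = 2.0e-08) while Ccl5 and Cxcl10 differed by -0.03 and -0.10. Mitf was the only 1 of the 8 markers to rise there. Of the others 2 fell, Pmel among them (-0.24, adjusted p = 0.012), and the lowest difference was -0.95. Of all probe sets 11.2% rose and 16.8% fell in the hypoxia mean.

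The replicates at 100 µM CoCl2 were ordered differently by the members. Replicate 1 read 0.53 higher than replicate 2 for Ccl2, 0.84 and 0.61 higher for the Cx3cl1 sets and 0.29 higher for Ccl7, whereas the differences were -0.35 for Ccl5 and -0.53 for Cxcl10. Ifit1, an interferon-induced gene, was among the genes most like Cx3cl1 98008_at over the 21 arrays (r = 0.416, or 0.11 without the CoCl2 arrays) and differed by 2.90 at 100 µM and 0.81 at 200 µM.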
